A study of Mus musculus with 16 samples.

Results

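The mitochondrial ribosomal protein genes were followed in cultured juxtaglomerular (JG) cells, which make renin in the kidney, after transfection with the microRNA miR-106b. Members were the protein-coding genes whose symbol starts with Mrpl or Mrps and a number, which gave 77 of the 46078 rows of the count table, 47 with Mrpl symbols and 30 with Mrps symbols. The rule uses names only and no measured value. The mouse JG cells carried a YFP reporter driven by the renin promoter (Ren1c-YFP), in all groups. Cultures received a non-mammalian control microRNA precursor or miR-106b and were harvested 48 h later. For each transfection, replicate cultures gave 4 libraries of polyA RNA and 4 of RNA that came down with an antibody to Ago2, the protein that holds microRNAs and the messages they bind. The polyA libraries form the groups polyA control and polyA miR-106b. The immunoprecipitated RNA forms the groups Ago2-IP miR-106b and Ago2-IP control. Single-end reads of 50 bases were counted per gene without regard to strand, with 2579086 to 9459585 counts per library.

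Mitochondria keep their own ribosomes, which translate only the few messages encoded by the mitochondrial genome, all of them for subunits of the respiratory chain and of ATP synthase. The RNA of these ribosomes is transcribed in the organelle, whereas every protein of the large subunit (Mrpl) and small subunit (Mrps) is encoded in the nucleus, made in the cytosol and imported. Some of the proteins have counterparts in bacterial ribosomes and others are found in mitochondrial ribosomes only. A few symbols no longer match the place of the protein: Mrps18a and Mrps30 belong to the large subunit in present nomenclature, and Mrps36 is now placed in the alpha-ketoglutarate dehydrogenase complex.

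Of the 77 members, 75 passed the filter on low counts (46 Mrpl, 29 Mrps). Mrpl53 (chr6:83109094-83109939, GRCm38) did not pass, with 8 counts over all 16 libraries. Of its exon bases, 88.0% are shared with other annotated genes, and the part of this overlap in its low count was not tested. The other was a second row for Mrps23 on an alternate assembly patch, with 0 counts. Mrpl33 has a member's name but no biotype in the table, so the rule leaves it out (2139 counts over all libraries), and 5 processed pseudogenes with such names had 0 to 12 counts each.

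The identity of the cells bears on all results. Ren1, the renin gene that defines JG cells, had 0 counts in every library, and Akr1b7, another gene known from JG cells, had 6 counts in all. The other 7 of 9 genes on the list of JG and mural cell markers passed the filter, and most of them are shared with smooth muscle or pericytes: in polyA control Des had 1096 ± 171, Acta2 752 ± 83.6, Tagln 495 ± 29.5, Pdgfrb 117 ± 17.4, Rgs5 38.2 ± 4.92, Cspg4 31.7 ± 5.40 and Myh11 15.5 ± 2.35 CPM (SD, n = 4). Cardiac muscle genes were abundant. Of a list of 25 such genes, 24 passed the filter, and their summed level was 22060 to 31270 CPM (counts scaled to a common library size) in polyA control, 42690 to 74040 in polyA miR-106b, 98940 to 105700 in Ago2-IP control and 96140 to 105600 in Ago2-IP miR-106b libraries. Within the polyA miR-106b group, libraries 2 and 4 held the most. The part of this difference in the results on the members was not tested beyond the fits without these libraries given below. In bulk RNA, fewer cells of a type and less RNA per cell cannot be told apart.

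The transfected microRNA and its possible sites in the members come first. Mature mmu-miR-106b-5p lies on the minus strand at chr5:138165787-138165807 (GRCm38.p6, sequence from RefSeq). It is shown because its seed, bases 2 to 8 in capitals, defines the sites searched.
mmu-miR-106b-5p: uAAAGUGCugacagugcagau
A site was the complement of the seed, GCACTTT, in the longest annotated 3′UTR of a gene. Such a site was present in 7 of 75 members (9.33%) and in 1954 of 13222 genes tested that have an annotated 3′UTR (14.8%). The median 3′UTR was 390 bases in members and 1222 bases in all those genes. When CACTTTA, a match of the same length that pairs with bases 2 to 7 and ends in an A, also counted, the numbers were 12 members and 2941 genes (22.2%). The members with the seed complement were Mrpl1, Mrpl3, Mrpl35, Mrpl51, Mrps24, Mrps35 and Mrps5. The sites of Mrpl1 and Mrps35 are followed by an A and so are of the longest class searched, and Mrpl51 has a pair of sites. These sites are shown with the bases around them, the seed complement in capitals.
Mrpl1, capitals at chr5:96265630-96265636, plus strand: ctgcaacagGCACTTTaccatggag
Mrps35, capitals at chr6:147072447-147072453, plus strand: ggcatatcaGCACTTTaaagactcg
Mrpl51, capitals at chr6:125193652-125193658, plus strand: ttattgctgGCACTTTctgacactg
Mrpl51, capitals at chr6:125194567-125194573, plus strand: ccctctgctGCACTTTgcttttgtt
A match of these letters is a description and not a shown target.

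The levels of the members in the cells were compared per kilobase of exon, since a longer message gives more reads. Exon length was taken over the coding transcripts of GENCODE release M21 within the bounds that the count table gives for a gene. In polyA control, the levels of the 75 members ran from 0.856 to 125 CPM per kb with a median of 18.3, a 146-fold range. Mrpl54, found in mitochondrial ribosomes only, was highest at 125 ± 7.38 CPM per kb (SD, n = 4). Mrpl52, of the same class, had 113 ± 5.27 and Mrps21, which has a bacterial counterpart in the small subunit, 87.7 ± 3.54 CPM per kb. The lowest were Mrps30 at 1.87 ± 0.195, Mrpl47 at 1.82 ± 0.442 and Mrpl1 at 0.856 ± 0.254 CPM per kb. Neighbours in this order mostly lie within each other's spread, and among the 3 highest and 3 lowest, Mrps30 and Mrpl47 did so. The order depended on the length used: with the exons of all annotated transcripts, Mrpl54 (91.6), Mrpl34 (74.98) and Mrps21 (66.5) were highest, Mrpl52 was at rank 7 with 50.04, and Mrps30 (0.446) was below Mrpl1 (0.856 CPM per kb).

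**Figure D1:**
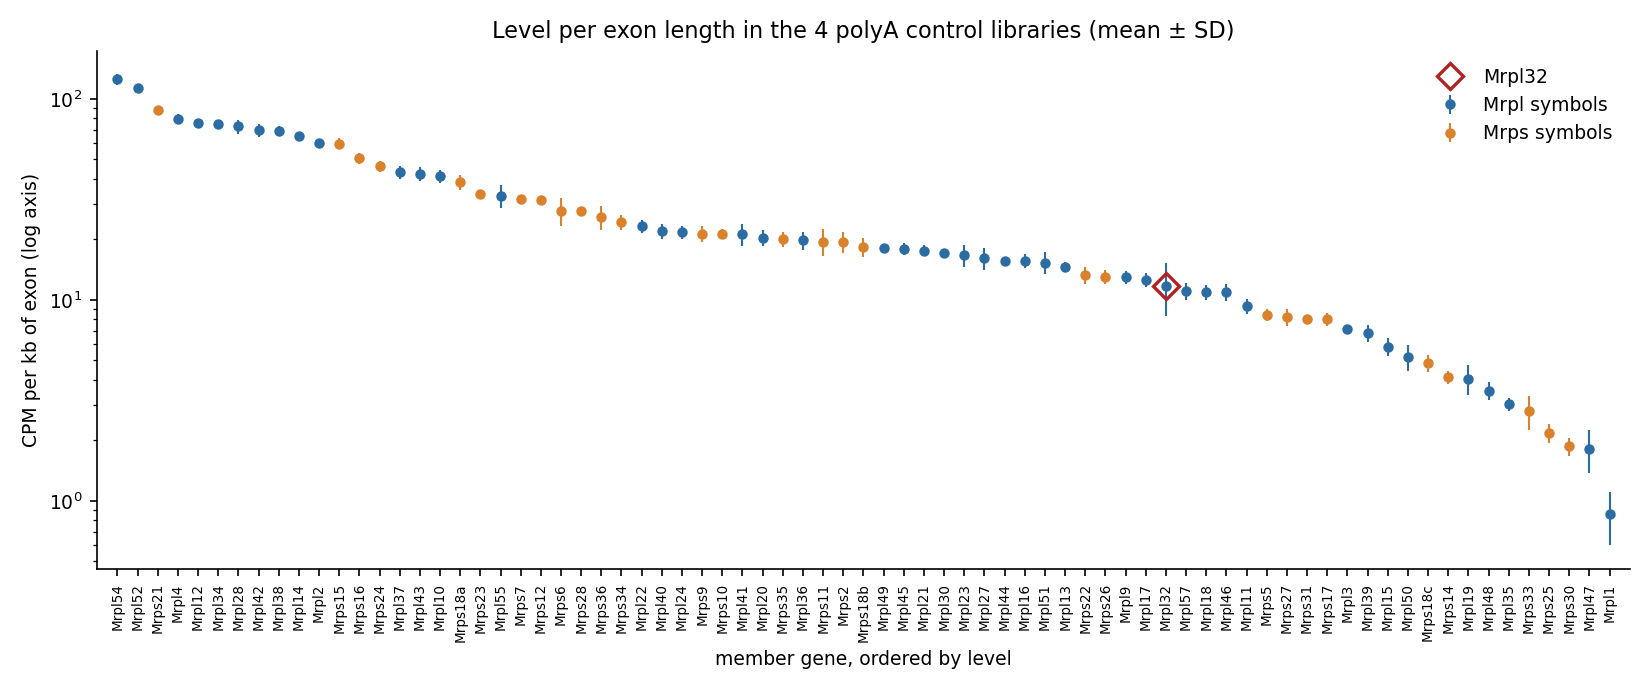
Level of each of the 75 members in polyA control (CPM per kb of exon, log axis; point = mean, bar = SD of 4 libraries), ordered from highest to lowest, Mrpl symbols in blue and Mrps symbols in orange. Mrpl54 is highest at 125 CPM per kb, and Mrpl32 (diamond) stands at rank 53 with 11.8.

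Mrpl32, a protein of the large subunit with a bacterial counterpart, is named in the study as the reference for RT-qPCR, and is therefore placed among the others. The gene (ENSMUSG00000015672) lies at chr13:14610300-14613037 on the minus strand of GRCm38. The polyA control libraries held 8.70, 12.9, 7.80 and 6.82 CPM and the polyA miR-106b libraries 8.96, 8.83, 9.11 and 8.16 CPM. All miR-106b libraries fell inside the range of the control libraries. The means were 9.06 ± 2.68 and 8.77 ± 0.419 CPM (SD, n = 4 each; exact two-sided permutation test, p = 0.971). The log2 fold change was -0.06 (SE 0.224, edgeR quasi-likelihood test, adjusted p = 0.846), with an approximate 95% interval of the difference from -0.50 to 0.38. Its sign turned under several other settings, and it was 0.26 without polyA control replicate 2, the library with the highest value. Mrpl32 thus showed no detectable difference between the polyA groups, within limits set by 22 to 123 raw counts per polyA library.

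In Ago2-IP RNA, Mrpl32 had 7.42, 10.6, 10.2 and 8.10 CPM with control and 10.5, 10.5, 11.6 and 8.75 CPM with miR-106b. These groups overlapped too (exact permutation test, p = 0.229, n = 4 each). The log2 fold change was 0.19 (SE 0.221, edgeR adjusted p = 0.951). Its difference between Ago2-IP and polyA RNA was 0.29 in control (SE 0.205, edgeR adjusted p = 0.214) and 0.39 with miR-106b (SE 0.221, adjusted p = 0.152).

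Among the members, Mrpl32 was low and varied more than the median member. It ranked 53 of 75 by level per kb at 11.8 ± 3.48 CPM per kb, and 72 of 75 when the exons of all annotated transcripts were counted, some of which run past the gene's bounds in the count table. Its coefficient of variation (CV) over the 8 polyA libraries was 19.99%, rank 52 from the steadiest, beside a median of 15.97% over the members. This CV rests on 22 to 123 raw counts per polyA library. Low counts by themselves raise a CV, and their part in this rank was not tested. It also rests on polyA control replicate 2, at 12.9 CPM against 6.82 to 9.11 CPM in the other polyA libraries. By size of the fold change in polyA RNA it was the 16th smallest of 75.

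The 5 steadiest members in polyA RNA had CVs of 4.17% (Mrpl13), 4.58% (Mrpl54), 4.90% (Mrpl3), 5.06% (Mrpl21) and 5.65% (Mrps7), and were chosen by this value. Mrpl13 had 21.99 to 25.1 CPM in control and 23.0 to 24.6 CPM in miR-106b libraries. Mrpl54, with 71.0 to 80.8 and 72.0 to 78.4 CPM, was the most abundant of these 5. Mrpl3, Mrpl13, Mrpl21 and Mrps7 have counterparts in bacterial ribosomes. A small CV over both groups also sets a small difference between them, so the log2 fold changes of these 5 (-0.08 to 0.03) are no separate result.

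Rpl32, a protein of the cytosolic ribosome whose symbol differs from that of Mrpl32 by a letter, was set beside it. It is no member, but the oligonucleotide pair listed under the name Mrpl32 in the study's methods matched transcripts of Rpl32, and none of Mrpl32, in a search by hand of GENCODE release M21. The gene (ENSMUSG00000057841) lies at chr6:115805504-115808747 of GRCm38. Rpl32 had 385.5, 409, 389.8 and 332 CPM in polyA control and 267.5, 238, 279.9 and 217 CPM in polyA miR-106b libraries. Every miR-106b library was below every control library. The means were 379 ± 33.0 and 251 ± 28.4 CPM (SD, n = 4 each), and the exact two-sided permutation p was 0.0286, the smallest that 70 relabellings allow. Rpl32 fell by 0.60 on the log2 scale (SE 0.118, edgeR adjusted p = 0.00188, range over the alternatives 2.6e-05 to 0.027). In Ago2-IP RNA it had 142 ± 6.21 CPM with control and 136 ± 7.25 CPM with miR-106b (exact permutation p = 0.229, n = 4 each). Rpl32 has processed pseudogenes of near-identical sequence, between which the counting could have divided reads. Per kb, Rpl32 was 33.4-fold higher than Mrpl32 in polyA control.

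**Figure D2:**
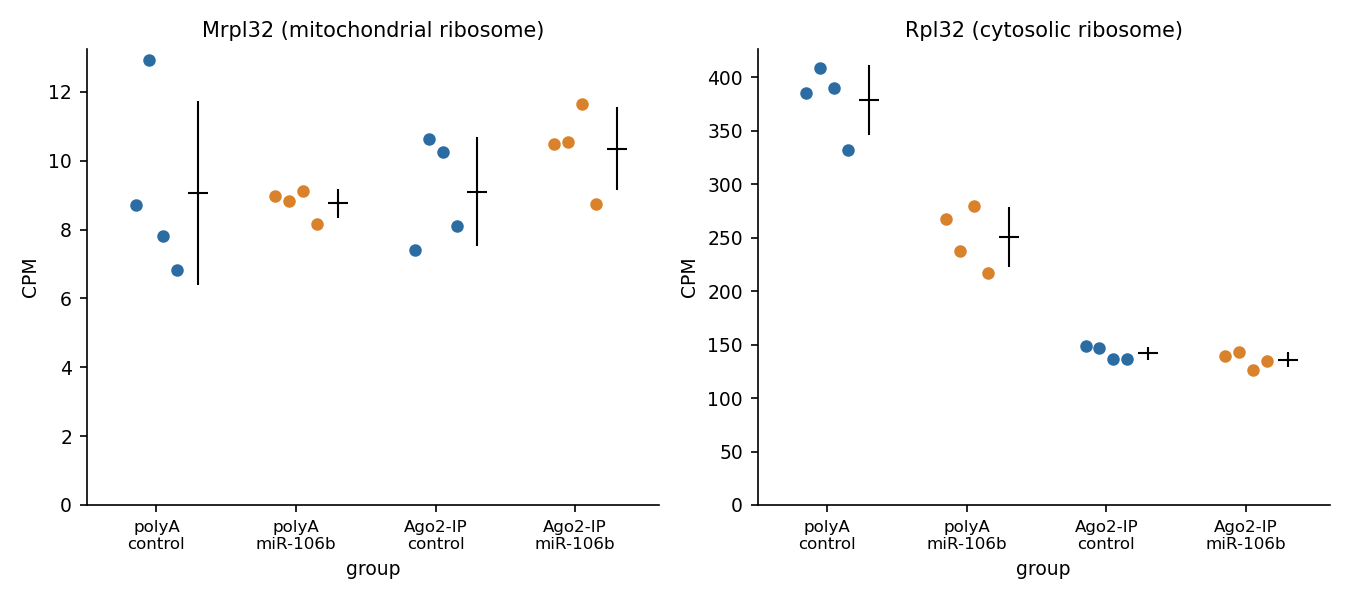
CPM of Mrpl32 (left) and Rpl32 (right) in each library of the 4 groups (points; the black mark is the mean and the bar the SD, n = 4; both axes start at 0). The polyA groups overlap for Mrpl32, with means of 9.06 and 8.77 CPM, and are apart for Rpl32, with means of 379 and 251 CPM.

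miR-106b against control in polyA RNA asks which messages change in level. Of the 75 members, 17 were higher with miR-106b (22.7%) and 4 were lower (5.33%) at an adjusted p under 0.05 (edgeR's quasi-likelihood test, adjusted over all 14897 genes tested). Over all genes tested, 19.0% were higher, 21.5% were lower and 40.5% were called in either direction, so in this fit the share of members that rose was near the background and the share that fell was below it. In a fit of all 16 libraries, 33 members were higher and 3 lower, beside 25.7% and 16.2% of all genes. The median log2 fold change was 0.18 over the members and -0.05 over all genes. The polyA groups did not overlap for 24 members, 20 of them higher (26.7%) and 4 lower (5.33%) with miR-106b, beside 16.8% higher, 21.6% lower and 38.3% in all among all genes. Without polyA miR-106b libraries 2 and 4, which had the highest cardiac levels, 5 members were higher and 2 lower, beside 11.02% and 9.82% of all genes. Without polyA miR-106b replicate 1 alone, 30 were higher and 3 lower, beside 23.5% and 21.5% of all genes. How the share of members that rose stood to the background thus depended on the fit. The summed CPM of the members was 2707, 3057, 2667 and 3171 in polyA miR-106b libraries 1 to 4, with libraries 2 and 4 again the highest, against 2490 to 2551 in polyA control. The median cardiac gene stood at 0.416, 0.723, 0.519 and 0.696 of its Ago2-IP control level in those 4 libraries and at 0.213 to 0.305 in polyA control. All 4 miR-106b libraries were thus above all control libraries in both measures.

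**Figure D3:**
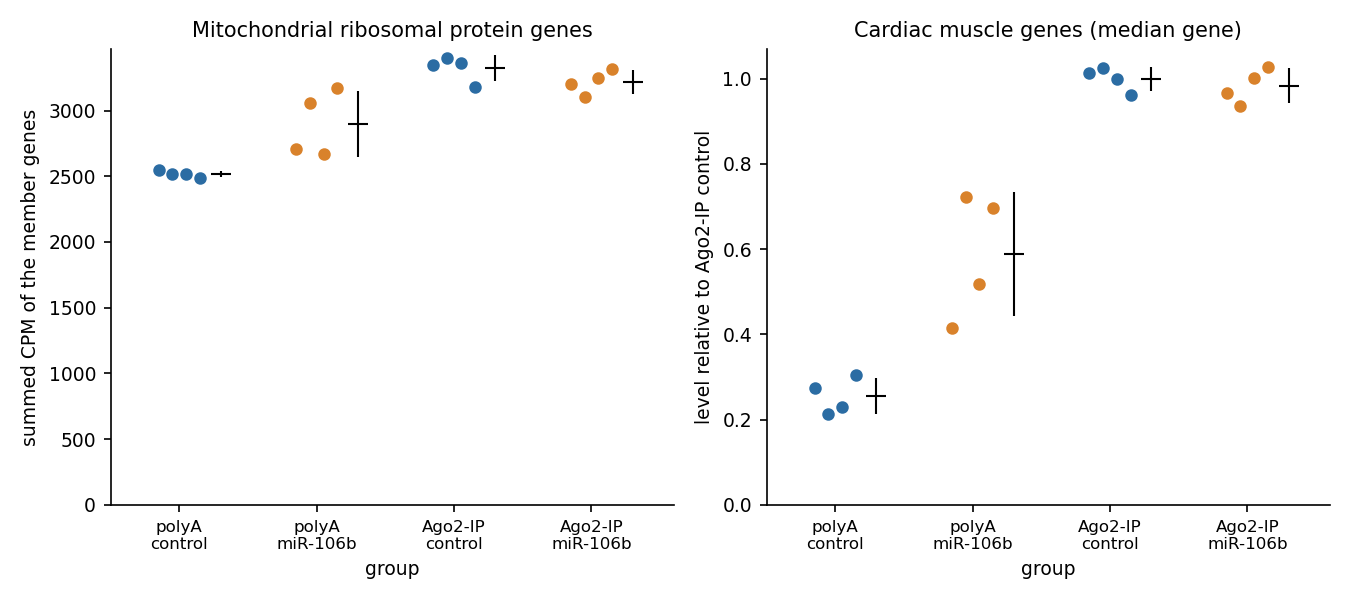
Summed CPM of the members (left) and level of the median cardiac muscle gene relative to its mean in Ago2-IP control (right) in each library (points; the black mark is the mean and the bar the SD, n = 4; both axes start at 0). In both panels the mean of polyA control is lowest, that of polyA miR-106b lies between, and the means of both Ago2-IP groups are highest. Within polyA miR-106b, libraries 2 and 4 lie above libraries 1 and 3. In the left panel, scaled within each RNA kind, polyA miR-106b library 4 (3171) lies above the lowest Ago2-IP miR-106b library (3102). With all libraries scaled together it lies below that library (3019 against 3296).

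Members with Mrpl symbols accounted for 10 of the rises and none of the falls (46 tested, 21.7% higher beside 19.0% of all genes, median 0.16), and the largest were those of Mrpl55, Mrpl44, Mrpl42, Mrpl34 and Mrpl2. Mrpl55 (chr11:59202485-59206134, plus strand, GRCm38 here and below), a protein of the large subunit, had 35.4, 29.0, 31.8 and 39.4 CPM in polyA control, and its miR-106b libraries held 56.9, 60.2, 50.5 and 72.0 CPM. The groups were apart, and its log2 fold change of 0.82 (SE 0.139, edgeR adjusted p = 0.000879) was the highest of the members. Mrpl44 (chr1:79776017-79781445, plus strand), a protein with a ribonuclease III-like fold, rose from 22.6, 22.2, 21.9 and 22.6 CPM to 30.5, 31.0, 25.4 and 46.4 CPM (log2 fold change 0.56, SE 0.167, edgeR adjusted p = 0.0168). Replicate 4 of the miR-106b group was well above the other 3 for this gene, and the fold change was 0.38 without it. Mrpl42 (chr10:95480805-95501927, minus strand), which has no bacterial counterpart, stood at 51.4, 45.9, 44.5 and 44.3 CPM in control libraries and at 58.2, 73.1, 66.0 and 77.2 CPM with miR-106b. This was a log2 fold change of 0.56 (SE 0.118, edgeR adjusted p = 0.00276).

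Mrpl34 (chr8:71464925-71465752, plus strand), a small protein with a bacterial counterpart, stood at 44.9, 45.9, 47.7 and 43.6 CPM in control libraries and at 62.5, 75.5, 48.6 and 75.7 CPM with miR-106b. Its lowest miR-106b library exceeded the highest control library by under 1 CPM, and the log2 fold change was 0.52 (SE 0.139, edgeR adjusted p = 0.00996). Mrpl2 (chr17:46646228-46650139, plus strand), a core protein of the large subunit near the site of peptide bond formation, stood at 59.2, 65.0, 65.8 and 59.5 CPM in control libraries and at 73.0, 96.6, 77.3 and 99.4 CPM with miR-106b (log2 fold change 0.47, SE 0.123, edgeR adjusted p = 0.00905). For both, as for the member sum, libraries 2 and 4 of the miR-106b group were the highest. The calls of Mrpl44, Mrpl34 and Mrpl2 were lost without these 2 libraries (adjusted p = 0.0822, 0.0811 and 0.0806), where their log2 fold changes were 0.36, 0.32 and 0.31 with 2 miR-106b libraries left.

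Of the members with Mrps symbols, 7 of 29 were higher (24.1%) and 4 lower (13.8%; median 0.29), beside 19.0% and 21.5% of all genes. The difference between Mrpl and Mrps symbols was not tested. Among those that rose, Mrps23 (chr11:88204387-88211507, plus strand), found in mitochondrial ribosomes only, went from 53.9, 53.6, 48.6 and 53.4 CPM to 74.8, 94.2, 69.6 and 95.3 CPM. The groups were apart (log2 fold change 0.67, SE 0.124, edgeR adjusted p = 0.00134). Mrps36 (chr13:100735954-100744659, minus strand) stood at 18.03, 16.2, 16.5 and 21.7 CPM in control libraries and at 24.2, 27.3, 23.7 and 27.8 CPM with miR-106b, again without overlap (log2 fold change 0.51, SE 0.143, edgeR adjusted p = 0.0129). Without libraries 2 and 4 of the miR-106b group the fold change of Mrps36 was 0.45 (edgeR adjusted p = 0.0797). Mrps21 (chr3:95862633-95871519, minus strand) stood at 51.6, 49.1, 49.3 and 46.7 CPM in control libraries and at 66.8, 72.0, 62.1 and 74.9 CPM with miR-106b (log2 fold change 0.49, SE 0.105, edgeR adjusted p = 0.00313). Its 4 miR-106b libraries all exceeded the 4 control libraries.

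All 4 members that fell carry Mrps symbols, and Mrps6, Mrps10 and Mrps18b have bacterial counterparts. Mrps6 (chr16:92058269-92112227, plus strand) had 18.7, 27.5, 24.9 and 22.4 CPM in polyA control and 13.2, 11.8, 11.9 and 14.1 CPM with miR-106b. It fell by 0.88 on the log2 scale (SE 0.162, edgeR adjusted p = 0.00128). Mrps6 shares 19.9% of its exon bases with genes on the same strand, one of them Slc5a3, the sodium/myo-inositol cotransporter. Slc5a3 had 35.6, 37.5, 35.8 and 25.4 CPM in polyA control and 13.7, 10.97, 15.5 and 3.34 CPM with miR-106b, so that it too was lower in every miR-106b library. Whether reads of one were counted for the other was not tested.

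Mrps22 (chr9:98588729-98601660, minus strand), a small-subunit protein found in mitochondrial ribosomes only, stood at 18.03, 14.6, 15.4 and 15.4 CPM in control libraries and at 10.5, 11.8, 10.5 and 10.4 CPM with miR-106b (it fell by 0.55 on the log2 scale, SE 0.155, edgeR adjusted p = 0.013). Mrps10 (chr17:47368886-47381417, plus strand) stood at 31.9, 31.0, 29.6 and 28.3 CPM in control libraries and at 18.4, 24.4, 21.5 and 23.7 CPM with miR-106b, and fell by 0.46 (SE 0.131, edgeR adjusted p = 0.0134). Mrps18b (chr17:35910378-35916389, minus strand), one of several Mrps18 paralogs, stood at 20.1, 22.8, 17.7 and 18.6 CPM in control libraries and at 15.7, 14.7, 13.0 and 14.1 CPM with miR-106b, and likewise fell by 0.46 (SE 0.148, edgeR adjusted p = 0.0253). The groups did not overlap for any of the 3, but each call was lost when single libraries were left out. For Mrps22 these were polyA control replicates 1, 2 and 3 (adjusted p up to 0.109), for Mrps10 the same and miR-106b replicate 1 (up to 0.102), and for Mrps18b polyA control replicates 1, 2 and 3 and miR-106b replicates 3 and 4 (up to 0.209). The log2 fold change of Mrps10 was -0.30 without miR-106b replicate 1, and that of Mrps18b -0.30 without polyA control replicate 2. Without polyA miR-106b libraries 2 and 4 the calls of Mrps22 (0.0582) and Mrps18b (0.11) were lost at fold changes of -0.55 and -0.43, as they were with no filter on low counts (0.0581 and 0.0932). The call of Mrps18b was also lost with DESeq2 size factors (0.0501), with DESeq2's Wald test (0.0648) and in a fit of all 16 libraries (0.117). Of the bases of Mrps18b, 30.5% are shared with an antisense gene, which these unstranded libraries cannot tell apart. None of the 4 members that fell holds the seed complement in its 3′UTR. Of the 7 members that hold it, Mrpl51 (0.46) and Mrps24 (0.34) rose, and the values of the others, not called, were 0.34 (Mrps35), 0.33 (Mrpl1), -0.04 (Mrps5), -0.08 (Mrpl3) and -0.17 (Mrpl35). With 7 members, no difference from the others could be read from these values.

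**Figure D4:**
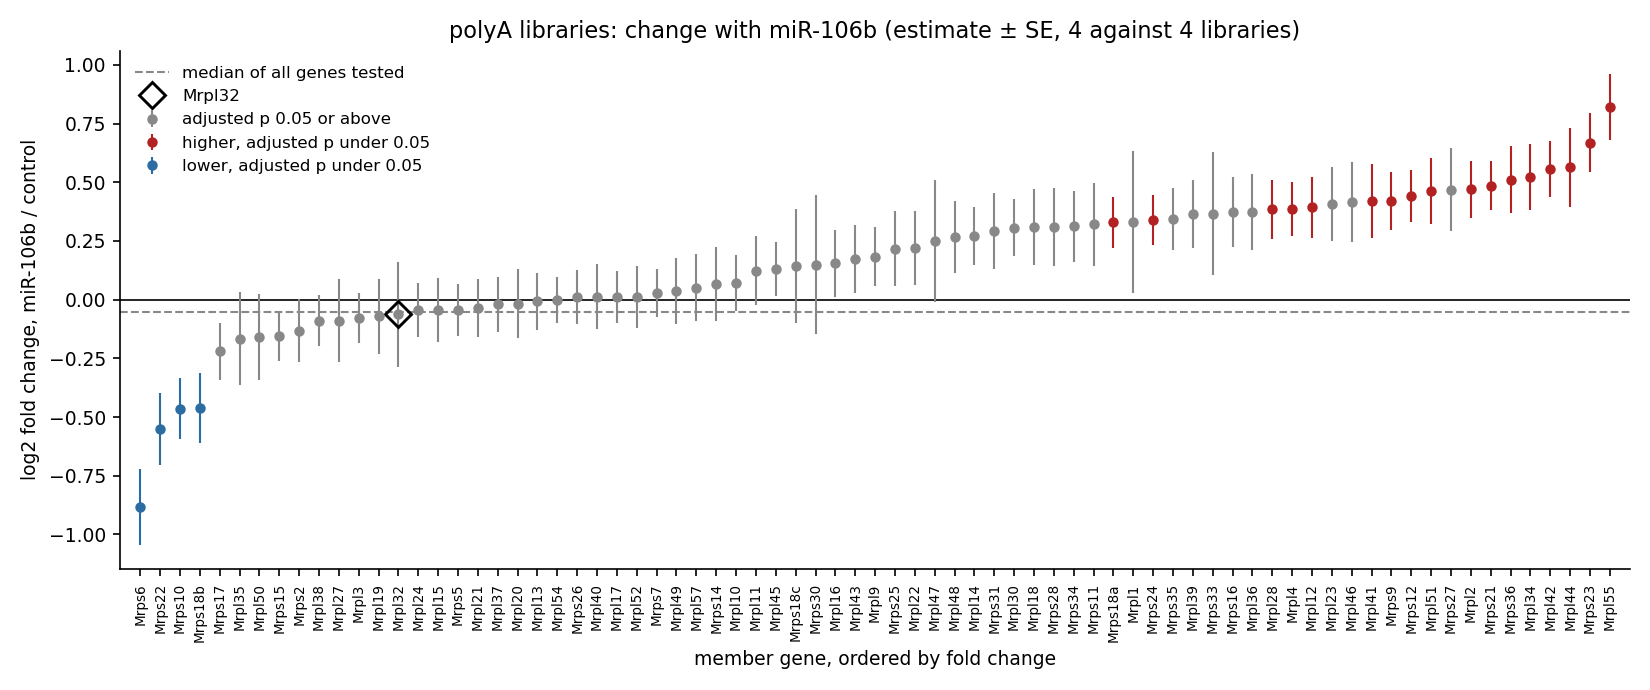
Log2 fold change between polyA miR-106b and polyA control for each of the 75 members (point = estimate, bar = SE, 4 against 4 libraries), ordered from lowest to highest, with called members in blue (4 lower) and red (17 higher). Most members lie above the dashed median of all genes (-0.05), and Mrpl32 (diamond) lies at -0.06.

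Members with a bacterial counterpart and those found in mitochondrial ribosomes only were counted apart in polyA RNA. Of 46 tested with a counterpart, 10 were higher and 3 lower (median 0.15), and of 27 without one, 5 were higher and 1 lower (median 0.22). These are 21.7% and 18.5% higher, near the 19.0% of all genes. Mrpl55 and Mrps36 were sorted into neither class. The difference between the classes was not tested.

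In Ago2-IP RNA the comparison of miR-106b with control asks which messages changed in level among the RNA that came down with Ago2. It is not set against their level in polyA RNA, so it does not by itself show whether a message gained or lost Ago2. None of the 75 members was called by edgeR's quasi-likelihood test, nor was any of the 14897 genes tested (0.0%). The count for the members was also 0 with DESeq2's Wald test and with edgeR's likelihood ratio test, which called 0.0134% and 0.121% of all genes. At an unadjusted p under 0.05 there were 2 members, beside 826 (5.54%) of all genes, and no member had groups that did not overlap (3.24% of all genes, 1.56% higher and 1.68% lower). The median log2 fold change was -0.06 over the members and 0.00 over all genes.

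The 5 members with the smallest unadjusted p were Mrps18c, Mrpl38, Mrpl55, Mrps26 and Mrpl46, and their adjusted p was 0.866 to 0.901. Mrps18c, a paralog of Mrps18b with few counts, had 6.28, 1.959, 3.23 and 3.50 CPM in Ago2-IP control and 4.27, 7.31, 8.08 and 4.96 CPM in Ago2-IP miR-106b, a log2 difference of 0.73 (SE 0.336) with overlapping groups. Mrpl38 had 92.7, 100.2, 93.7 and 87.1 CPM with control and 87.4, 70.5, 92.8 and 84.3 CPM with miR-106b (log2 difference -0.16, SE 0.0771; -0.08 without miR-106b replicate 2). Mrpl55, the largest rise in polyA RNA, had 84.7, 91.5, 80.3 and 73.3 CPM with control and 71.1, 72.0, 66.3 and 85.5 CPM with miR-106b in Ago2-IP RNA (log2 difference -0.16, SE 0.0832; -0.24 without miR-106b replicate 4). The members with the seed complement had log2 differences from -0.36 (Mrpl1) to 0.14 (Mrpl35).

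The change of the Ago2-IP to polyA ratio with miR-106b sets the 2 RNA kinds against each other, tested as an interaction term in the fit of all 16 libraries. The ratio fell for 26 members (34.7%) and rose for 1, whereas 19.7% of all genes were lower, 7.61% higher and 27.3% called in either direction. The median was -0.37 over the members and -0.07 over all genes. The count of 27 depended on the settings: it was 15 (2 higher) when libraries were scaled by their size only, 16 (2 higher) with TMM within each RNA kind, 10 (1 higher) with no filter on low counts, 13 (none higher) without polyA miR-106b libraries 2 and 4, and 18 (2 higher) without library 2 alone. Of all genes, 28.9%, 28.9%, 12.4%, 18.6% and 24.6% were called in these fits in the same order. In the main fit, 36% of the members were called in either direction, beside the 27.3% of all genes. In none of these other fits was the share of members called clearly above that of all genes. How the members stood to the background thus depended on the fit.

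Among the members called, the largest falls of the ratio were those of Mrpl55 (-1.13, SE 0.173, edgeR adjusted p = 3.9e-05) and Mrps23 (-0.84, SE 0.144, adjusted p = 0.000108). Mrpl46 (-0.83, SE 0.247, adjusted p = 0.0138), Mrps12 (-0.76, SE 0.161, adjusted p = 0.000937) and Mrps36 (-0.74, SE 0.186, adjusted p = 0.00412) followed. Mrpl1 stood at -0.84 (SE 0.42) but was not called (edgeR adjusted p = 0.145). Mrps12 is the counterpart of a bacterial protein of the decoding centre. It had 32.1 to 34.5 CPM in polyA control, 41.1 to 49.3 CPM in polyA miR-106b, 47.7 to 63.8 CPM in Ago2-IP control and 43.3 to 55.9 CPM in Ago2-IP miR-106b. Mrpl46 had 10.9 to 13.9, 13.2 to 20.1, 18.9 to 25.6 and 12.8 to 22.5 CPM in the same order of groups. For Mrps12 the polyA groups were apart, while for Mrpl46 they overlapped and its change in polyA RNA was not called. Both genes overlapped between the 2 Ago2-IP groups. The ratio call of Mrpl46 was lost without polyA miR-106b replicate 2 (edgeR adjusted p = 0.0702), and without libraries 2 and 4 together (0.13). With no filter on low counts, the calls of Mrpl46 (0.0608) and Mrps36 (0.0559) were both lost. Mrps6, the only member whose ratio rose (0.69, SE 0.245, edgeR adjusted p = 0.0374), had 18.7 to 27.5 CPM in polyA control, 11.8 to 14.1 CPM in polyA miR-106b, and 8.35 to 11.2 and 8.73 to 11.3 CPM in the 2 Ago2-IP groups. That call was lost without any 1 of polyA control replicates 2 and 3, polyA miR-106b replicate 3, Ago2-IP control replicates 3 and 4 and Ago2-IP miR-106b replicates 1 and 4 (edgeR adjusted p up to 0.0923), and without polyA miR-106b libraries 2 and 4 together (0.0669).

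Ago2-IP against polyA RNA shows how the members were distributed between the 2 RNA kinds within a transfection. In control, 56 members were higher in Ago2-IP RNA (74.7%), 4 were lower and the median log2 difference was 0.54, whereas of all genes 35.1% were higher, 34.6% lower and 69.7% called, with a median of -0.03. When libraries were scaled by size only, 33 members were higher and 7 lower (27.8% and 45.5% of all genes), and with TMM within each RNA kind 34 and 7 (28.0% and 45.2% of all genes). A change of scaling shifts the log2 differences of all genes by nearly the same amount. The distance between the medians of members and of all genes (0.58) was therefore the same in all 3 scalings, and this is no separate result. With miR-106b, 30 members were higher (40.0%) and none lower, with a median of 0.31, beside 21.9% higher, 24.5% lower and 46.4% called among all genes. Scaling by size gave 20 higher and 3 lower there (16.7% and 32.4% of all genes). Since the control and miR-106b comparisons use different libraries but the ratio above uses both, the 3 sets of values are not independent. Cardiac muscle genes were also higher in Ago2-IP RNA, 23 of 24 in either transfection, with medians of 2.29 in control and 0.89 with miR-106b.

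In control, the largest differences towards Ago2-IP RNA were those of Mrpl55 (1.59, SE 0.122), Mrps23 (1.45, SE 0.102), Mrpl42 (1.38, SE 0.107), Mrpl39 (1.30, SE 0.13) and Mrpl44 (1.29, SE 0.146), with edgeR adjusted p between 1.1e-11 and 3.3e-08. Mrps23 stood at 121, 119, 120.1 and 103 CPM in Ago2-IP control against 48.6 to 53.9 CPM in polyA control. Mrpl39, a protein related to threonyl-tRNA synthetases, had 25.7, 34.4, 35.02 and 30.2 CPM in Ago2-IP control against 13.9 to 17.3 CPM in polyA control. The 4 members that were lower in Ago2-IP RNA were Mrps6 (-0.93, SE 0.162, edgeR adjusted p = 1.8e-05), Mrps10 (-0.54, SE 0.138, adjusted p = 0.00128), Mrps22 (-0.37, SE 0.164, adjusted p = 0.0462) and Mrps17 (-0.28, SE 0.122, adjusted p = 0.0486). The call of Mrps22 was lost without any 1 of replicates 1, 3 and 4 of either control group (adjusted p up to 0.134), and that of Mrps17 without any 1 of replicates 1, 2 and 4 of either control group or replicates 2 and 4 of Ago2-IP miR-106b (up to 0.117). With libraries scaled by size only, the values of Mrps10, Mrps22 and Mrps17 were -0.86, -0.69 and -0.59. Of these 4, Mrps6, Mrps10 and Mrps22 are also among the 4 that fell with miR-106b in polyA RNA, and the 2 comparisons share the polyA control libraries.

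**Figure D5:**
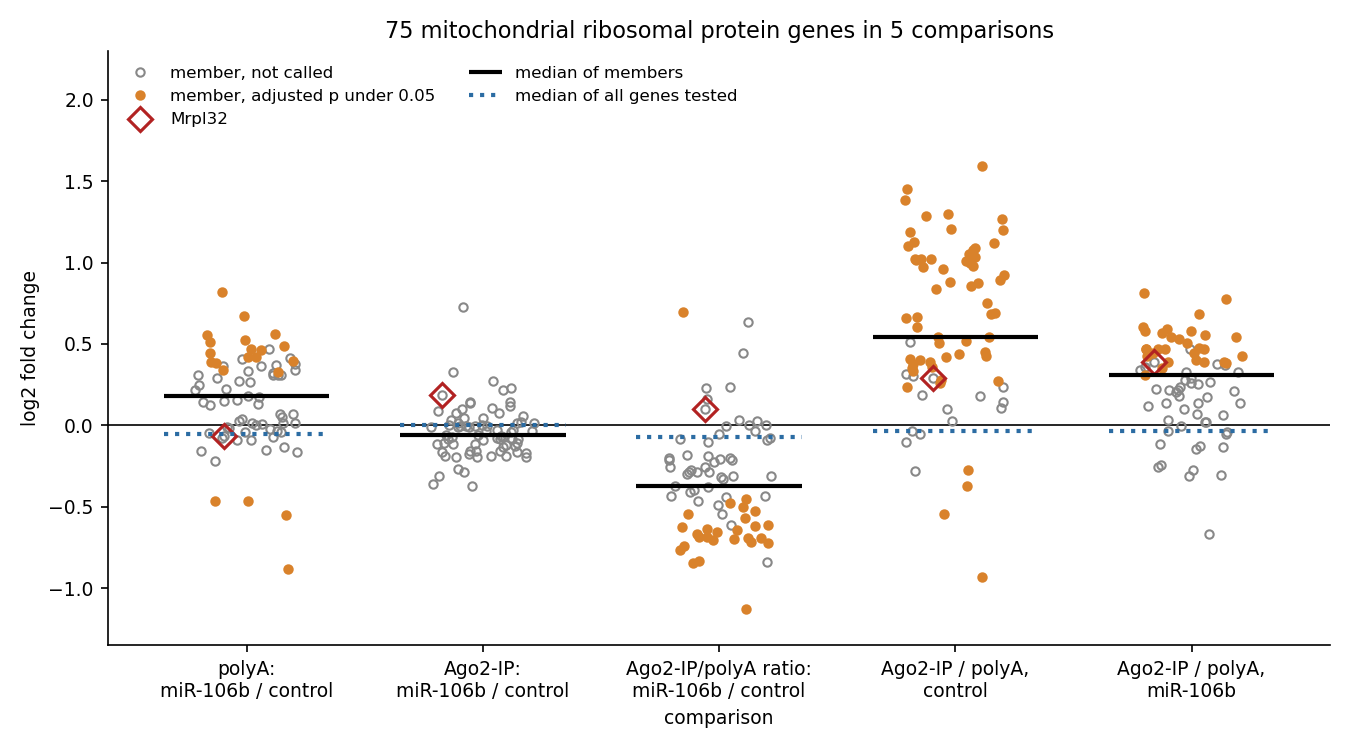
Log2 fold changes of the 75 members in the 5 comparisons (points; filled orange = adjusted p under 0.05; solid line = median of the members; dotted line = median of all genes tested; diamond = Mrpl32). The member medians are 0.18, -0.06, -0.37, 0.54 and 0.31 from left to right, and Mrpl32 is called in none of the 5.

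Other nuclear genes of mitochondrial translation were taken from fixed lists, to be read beside the 19.0% of all genes that were higher and the 21.5% that were lower in polyA RNA. Of 6 mitochondrial ribosomal proteins with other symbols, 1 rose in polyA RNA (median 0.09): Aurkaip1, a small-subunit protein, at 44.0 ± 1.11 CPM with the control precursor and 59.0 ± 7.20 CPM with miR-106b (log2 fold change 0.42, SE 0.115, edgeR adjusted p = 0.0114, n = 4 each). None of 11 translation factors was called (median 0.11). The largest values among them were those of the release factor Mtrf1 (0.68, SE 0.326, adjusted p = 0.115) and of Mtfmt, which formylates the initiator tRNA (-0.45, SE 0.243, adjusted p = 0.164). Of the assembly factors, 21 of 23 listed were in the table and none was called (median 0.04), C1qbp being at -0.31 and the rRNA methyltransferase Nsun4 at 0.28. Of 17 mitochondrial tRNA synthetases, 2 rose (median 0.02), while the largest values, those of Rars2 (-0.52) and Wars2 (-0.51), did not pass the test.

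Subunits of the respiratory chain and of ATP synthase, and the ribosomes of the cytosol, are given for polyA RNA. Of 80 nuclear genes of respiratory chain and ATP synthase subunits tested, 76 rose and 1 fell (median 0.77). Of 11 protein genes of the mitochondrial genome, 8 rose (median 0.81). Of 80 cytosolic ribosomal protein genes, 1 rose and 72 fell (median -0.56). The cardiac list had 23 of 24 higher (median 1.23) and a list of endothelium and blood genes 14 of 15 (median 1.21). The members, at a median of 0.18, lay between the cytosolic ribosomal proteins and the list of respiratory chain and ATP synthase subunits. The differences between these lists were not tested.

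The position of the members in the genome was not used by the rule. For 33 of the 75 (44.0%), the start of another protein-coding gene on the opposite strand lay within 1000 bases of their own start, in a head-to-head arrangement. Of 13270 coding genes tested with an annotated start, 2012 (15.2%) had such a neighbour. The share was 24 of 46 for Mrpl and 9 of 29 for Mrps symbols. Of the 33 members, 15 overlapped this neighbour, Mrpl46 and Mrps11 (each other's neighbour) both counted, and for the others the starts were a median of 82 bases apart. Mrpl32 starts 75 bases from Psma2, a proteasome subunit, Mrps12 172 bases from Sars2, the mitochondrial seryl-tRNA synthetase, and Mrpl36 overlaps Ndufs6, a subunit of respiratory complex I. Mrpl43 overlaps Twnk, the helicase that replicates mitochondrial DNA.

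Mrpl46 and Mrps11, a pair of members, face each other and overlap by 412 bases. In polyA RNA their log2 fold changes were 0.41 (SE 0.171) and 0.32 (SE 0.178) and neither was called. In control, Ago2-IP against polyA, the values were 1.21 (SE 0.17, edgeR adjusted p = 1.0e-06) and 0.51 (SE 0.157, adjusted p = 0.00618). Exon bases were shared with another gene in 30 of the 75 members, in 26 of them with a gene on the opposite strand. Mrps25 and Mrps34 share over 50% and their values are uncertain for that reason.

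The 300-base windows around the starts (250 bases before to 50 after, RefSeq, GRCm38.p6) were searched on both strands for 4 motifs of factors known to act on nuclear genes of mitochondria. Windows were available for 66 member genes, 72 in all, and for 13312 windows of all genes tested. The letters of the NRF1 motif are the capitals in the Mrpl32 window printed below and those of the YY1 motif the capitals in the Mrps18a window. The NRF1 motif was in 4.17% of member windows and 1.91% of all windows, the YY1 motif in 6.94% and 1.34%, the ETS motif CCGGAAG, of the family of GABPA, in 31.9% and 15.7%, and the E-box CACGTG in 9.72% and 9.52%. The 7 member windows with the E-box belong to 5 of the 66 genes, since overlapping windows of Mrpl2 hold the same site 3 times. The NRF1 windows were those of Mrpl32, Mrpl39 and Mrpl9, and the YY1 windows those of Mrpl35, Mrpl37, Mrps11, Mrps18a and Mrps27. A few are printed, with the motif in capitals, because Mrpl32 is the gene named as reference and the others each stand for a motif among members described above.
Mrpl32, NRF1 motif at -87 from the start, chr13:14613105-14613134, minus strand: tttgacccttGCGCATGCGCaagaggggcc
Mrpl39, NRF1 motif at -125, chr16:84735350-84735379, minus strand: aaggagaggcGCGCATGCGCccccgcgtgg
Mrpl34, ETS motif at -37, chr8:71464878-71464907, plus strand: aactacagctcCCGGAAGgccccgcggcaa
Mrps22, ETS motif at -11, chr9:98601672-98601701, minus strand: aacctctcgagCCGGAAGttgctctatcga
Mrps18a, YY1 motif at 11, chr17:46111006-46111035, plus strand: gtgcgttccAAGATGGCGGCcctcagggct
The ETS motif was thus present in a member that rose (Mrpl34) and in one that fell (Mrps22). A match of letters is a description and not a site shown to be bound.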

How the data were processed

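Per the labels and the study's methods, the authors removed reads of ribosomal RNA, aligned what remained with TopHat2 to the mouse transcriptome of GRCm38 (version 2.0.10 in the submitters' processing notes, a later one in the methods) and counted reads per gene with HTSeq. The deposited values are raw counts per gene and library, not normalized or filtered. By the rule that the study's methods describe, applied here to the deposited table, a gene was tested where 3 or more of the 4 replicates in some group reached 1 CPM; 14897 genes were.

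Counts were analysed with edgeR version 4.0.16 (limma version 3.58.1, R 4.3.3): TMM scaling, then the robust quasi-likelihood F test (two-sided), with p-values adjusted by Benjamini and Hochberg's method across the genes tested and a threshold of 0.05. polyA and Ago2-IP libraries were fitted apart for miR-106b against control, and all 16 together for the ratio and for Ago2-IP against polyA RNA. DESeq2 version 1.42.0 was an alternative. CPM were scaled by TMM within each RNA kind, and those of marker lists by library size. SE and the approximate 95% interval are on the log2 scale. The SE was derived from the log2 fold change and the F statistic of the edgeR test. The interval was set from that SE by the normal distribution. Replicates are separate cultures per the labels; shared numbers paired nothing.

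Named members were Mrpl32 and, among called members, up to 8 with the largest rise and fall in polyA RNA. Called members also gave up to 5 each way for the ratio and for Ago2-IP against polyA RNA in control. Further ones were the 5 with the smallest p in Ago2-IP RNA and the 3 highest and lowest per length. The 5 with the smallest CV and those that failed the filter were added. In each other list, the 2 genes with the largest change in polyA RNA were named. Other members are named for a site, motif or neighbour. The members and lists were chosen with earlier results of these data known. The length definition and the fits without polyA miR-106b libraries 2 and 4 were chosen after seeing the data. Reads have no molecular identifiers, so counts do not give independent molecules.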

Additional observations from a re-analysis of the deposited data

Results flagged for a closer look

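In 5 of 116 checks of single libraries (29 named members in 4 groups of 4 libraries), 1 library stood apart from the other 3 of its group by Dixon's criterion, and chance flags about 1 in 20. Mrpl47 had 10.8 CPM in polyA miR-106b replicate 4, against 6.07 to 6.72 CPM in the others. Mrps12 had 34.5 CPM in polyA control replicate 1, against 32.1 to 32.4 CPM. Mrps22 had 11.8 CPM in polyA miR-106b replicate 2, against 10.4 to 10.5 CPM. Mrps23 had 48.6 CPM in polyA control replicate 3, against 53.4 to 53.9 CPM, and 103 CPM in Ago2-IP control replicate 4, against 119 to 121 CPM.

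For 27 members the change with miR-106b differed between polyA and Ago2-IP RNA by the test of the interaction, 26 of them with a lower and 1 with a higher ratio. Of all genes, 27.3% were called (19.7% lower and 7.61% higher).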

How the results depend on the processing

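In polyA RNA the 21 members called became 36 when all 16 libraries were fitted at once (41.9% of all genes called) and 7 without polyA miR-106b libraries 2 and 4 (20.8%; all 7 among the 21). Leaving out single libraries gave 15 to 33 calls (27.7% to 45% of all genes), the most without polyA miR-106b replicate 1. DESeq2's Wald test called 29 (39.6%), of which 20 were among the 21. Mrpl42, Mrpl55, Mrps12, Mrps21, Mrps23 and Mrps6 were called in all 18 fits. For the ratio, the 27 calls became 15 with scaling by library size, 10 with no filter on low counts, 16 with TMM within each RNA kind and 13 without those 2 libraries, and single libraries left out gave 18 to 32 (22.4% to 32.3% of all genes). Ago2-IP against polyA RNA in control gave 40 to 62 calls (33.7% to 77.8% of all genes) and, with single libraries left out, 53 to 61 (65.5% to 71.5%). Ago2-IP RNA gave 0 in all 17 fits.

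The sign of Mrpl32 in polyA RNA turned with DESeq2 size factors (0.0069), DESeq2's Wald test (0.0086), the likelihood ratio test (0.024), 1 fit of all libraries (0.063) and without libraries 2 and 4 (0.0074). Single libraries left out gave -0.17 to 0.26. Its adjusted p was 0.40 to 0.999 throughout. The causes were not tested. Counting CACTTTA too moved members with a site from 7 to 12.

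The replicate numbers did not pair libraries (24 correlations from -0.395 to 0.207, with 5 libraries closest to their own number), and with a replicate block 18 members were called in polyA RNA, 0 in Ago2-IP RNA, 25 for the ratio, and 58 and 30 for Ago2-IP against polyA RNA in control and with miR-106b (37.0%, 0.00671%, 26.1%, 68.4% and 44.6% of all genes). Among named members, the block ended the ratio call of Mrps6 (adjusted p = 0.0546) and, for Ago2-IP against polyA RNA in control, those of Mrps22 (0.0639) and Mrps17 (0.0518). At the depths of these libraries, Mrpl1, Mrps18c, Mrps30 and Mrpl32 rest on few counts.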

Other observations

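Of 12 regulators of mitochondrial biogenesis on a fixed list, 3 rose and 5 fell in polyA RNA with miR-106b (edgeR's quasi-likelihood test, median -0.06), beside 19.0% higher and 21.5% lower among all genes. Those that rose were the coactivators Ppargc1a (log2 fold change 1.21, edgeR adjusted p = 0.00225) and Ppargc1b (1.26, SE 0.202, adjusted p = 0.000724) and the nuclear receptor Esrra (0.67, adjusted p = 0.00313). Those that fell were Myc (-1.50, SE 0.261, edgeR adjusted p = 0.00131), Gabpb1 (-0.88, adjusted p = 0.00169), Pprc1 (-0.85, adjusted p = 0.00166), Nrf1 (-0.46, adjusted p = 0.00966) and Yy1 (-0.45, adjusted p = 0.0225). Gabpa, Tfam, Tfb2m and Polrmt had adjusted p between 0.122 and 0.932. Ppargc1b stood at 28.4 ± 4.99 CPM in polyA control, 68.3 ± 20.8 CPM with miR-106b in polyA RNA and 108 ± 9.54 CPM in Ago2-IP control. In the same order, Myc had 117 ± 12.6, 41.1 ± 19.1 and 17.3 ± 2.44 CPM (SD, n = 4 each). For both, the mean of the polyA miR-106b group thus lay between those of polyA control and Ago2-IP control, as it did for the summed members and the cardiac genes. Regulators other than Ppargc1b and Myc were named after their values were seen.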
